A study of Mus musculus with 2 samples.

Results

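The death receptor pathway was examined through 8 genes, of 25810 genes with a symbol in the files. They were selected by symbol: the ligands *Tnf* and *Tnfsf10* (TRAIL), the receptors *Fas*, *Tnfrsf1a*, *Tnfrsf10b* and *Tnfrsf12a*, the kinase gene *Ripk1*, and *Casp8*, the only caspase gene among them. mRNA was sequenced from mammary cells of lactation day 3 inguinal glands, in 1 library from wild type (WT) and 1 from *Igfbp7*-/- (KO) mice. In both groups the cells had been depleted of lineage positive cells with antibodies to CD45, CD31 (CD35 in the sample labels) and Ter119. The KO mice lack *Igfbp7* in all tissues, by deletion of its exon 1 in embryonic stem cells. The study's methods place them on the CD1 background, while the labels of both samples give C57BL/6. The age of the mice and the number of mice behind each library were not found in the sources used here.

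Death receptors are cell surface proteins of the TNF receptor superfamily whose intracellular death domain recruits adaptor proteins when a ligand binds. At FAS and the TRAIL receptor the adaptor FADD gathers procaspase-8, which becomes active and cleaves further caspases or, through BID, engages the mitochondria. At TNFR1 the first complex contains TRADD, RIPK1 and TRAF2 and mainly drives NF-kappaB, and a later complex holds FADD and caspase-8 or, where caspase-8 is inactive, RIPK3 and MLKL, which execute necroptosis. In the mammary gland these receptors are known from studies of involution, the phase after weaning in which secretory cells die and the gland is remodelled.

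Upstream sequences are shown for *Tnfsf10*, *Tnf* and *Casp8*, which were lower in the KO library by at least 1.5 times, and for *Fas*, which was not. They come from RefSeq windows of 250 bases before a transcript start (annotated on GRCm38.p6), which were available for 7 of the 8 genes, all but *Tnfrsf10b*, and each was matched at 1 position in NCBIM37, the mouse build known as mm9. Bases inside exons annotated in GENCODE M1 were left out, which shortened the *Tnfsf10* stretch to 201 bases. The stretches are chr3:27215749-27215949 (plus strand) for *Tnfsf10*, chr17:35338953-35339202 (minus strand) for *Tnf*, chr1:58859096-58859345 (plus strand, within an intron of the annotated gene) for *Casp8* and chr19:34364899-34365148 (plus strand) for *Fas*. Each is written from 5′ to 3′, and capitals mark the motifs found.
*Tnfsf10*: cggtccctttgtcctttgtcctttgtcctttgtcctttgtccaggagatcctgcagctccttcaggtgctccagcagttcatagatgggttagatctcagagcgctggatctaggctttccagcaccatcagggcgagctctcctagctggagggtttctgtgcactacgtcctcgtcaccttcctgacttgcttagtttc
*Tnf*: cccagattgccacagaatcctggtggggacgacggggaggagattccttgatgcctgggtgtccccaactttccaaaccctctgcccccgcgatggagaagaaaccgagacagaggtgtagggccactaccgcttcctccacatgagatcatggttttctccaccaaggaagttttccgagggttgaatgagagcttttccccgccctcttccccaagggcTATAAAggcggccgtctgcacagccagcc
*Casp8*: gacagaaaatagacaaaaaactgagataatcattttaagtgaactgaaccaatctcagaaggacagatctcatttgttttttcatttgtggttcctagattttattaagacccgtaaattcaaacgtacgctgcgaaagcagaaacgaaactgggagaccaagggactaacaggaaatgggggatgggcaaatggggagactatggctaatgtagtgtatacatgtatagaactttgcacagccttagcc
*Fas*: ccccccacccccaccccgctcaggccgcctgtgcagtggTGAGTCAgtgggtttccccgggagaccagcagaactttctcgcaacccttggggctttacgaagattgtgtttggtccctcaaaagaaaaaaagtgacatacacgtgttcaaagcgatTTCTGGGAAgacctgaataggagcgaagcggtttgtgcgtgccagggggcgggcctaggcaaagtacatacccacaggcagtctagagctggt

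Both strands of the 250-base windows were searched for a STAT motif (TTCNNNGAA), an AP-1 motif (TGANTCA), an NF-kappaB motif, an interferon response core and a TATA box. Of all 32851 RefSeq windows, 7.02% held the STAT letters, 6.75% the AP-1 letters, 12.4% the TATA box, 4.65% the NF-kappaB motif and 2.98% the interferon core. The *Fas* window held 1 STAT and 1 AP-1 match, and the *Tnf* window held 1 TATA box (TATAAA). The windows of *Tnfsf10*, *Casp8* and *Tnfrsf12a* held none of the 5, *Tnfrsf1a* had 1 STAT match, and 1 of the 2 windows of *Ripk1* had 2 STAT matches. The *Tnfrsf1a* window and this *Ripk1* window begin inside an annotated exon and lie within the span of their gene. A match describes letters only, and these libraries hold no measurement of factor binding.

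Each file of the authors held, per gene, the number of reads, the reads per 1000000 reads of the library total (RPM) and the RPM per kilobase of gene length (RPKM). The totals behind the RPM were 34327854 reads in WT and 35016847 in KO, so that 1 read was worth 0.0291 and 0.0286 RPM. Reads outside the listed genes made up 17.7% of the WT total and 27.7% of the KO total. *Igfbp7* had 5224 reads in WT and 37 in KO, in the direction given by the labels. With 1 library per genotype no difference could be tested against the variation between mice, and no p-value is given. Intervals are 95% intervals on read pairs (counts divided by 2, because low counts were mostly even) and cover counting error only. A gene was counted as higher or lower when its KO to WT ratio, with 0.1 RPM added to both values, was at least 1.5 in that direction (0.58 on the log2 scale).

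Of the 8 genes, 4 were lower in KO by at least 1.5 times (*Tnfsf10*, *Casp8*, *Tnfrsf10b* and *Tnf*), none was higher and 4 lay within 1.5 times. All 8 reached 1 RPM in both libraries. Among the 14026 genes that reached it in either library, 23.0% were lower and 21.4% were higher. Among the 8201 genes that reached 10 RPM in either library, as all 8 did, the shares were 20.4% and 20.7%. The median log2 ratio of the 8 genes was -0.53, against 0.035 over the 14026 genes. The genes did not move as a block, since *Ripk1* and *Tnfrsf12a* had more RPM in KO. By RPKM, *Tnfrsf12a* per *Tnfsf10*, a pair chosen after the values were seen, was 7.58 in WT and 43.0 in KO. The log2 change was 2.505 (interval 2.24 to 2.78, which does not account for that choice).

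**Figure D1:**
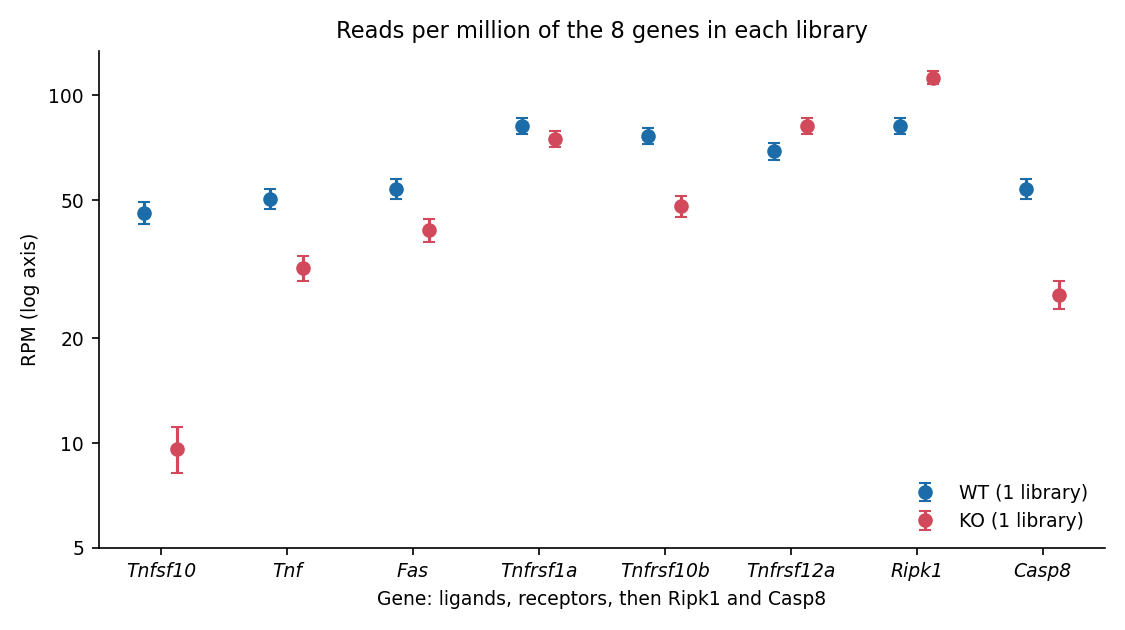
RPM of the 8 genes (log axis) in the WT library (blue) and the KO library (red). Bars are exact 95% Poisson intervals on read pairs and cover counting error only. The wide gap at *Tnfsf10* (45.9 and 9.60 RPM) and the reversed order at *Ripk1* (81.5 and 112.5 RPM) stand out.

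Of the ligand genes, *Tnfsf10* had the lowest ratio of the 8 genes. It encodes TRAIL, which binds the receptor encoded by *Tnfrsf10b*, and had 1575 reads in WT (45.9 RPM) and 336 in KO (9.60 RPM). The KO value was thus 4.74 times lower, with a log2 ratio of -2.25 (interval -2.51 to -2.02). Only 2.94% of the genes tested had a lower ratio. The gene spans 27215950 to 27241349 on chromosome 3 of NCBIM37 (plus strand, 5 exons in its longest coding transcript), and no other annotated gene overlaps it.

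*Tnf*, the founding cytokine of the family and a ligand of the receptor encoded by *Tnfrsf1a*, had 1726 reads in WT (50.3 RPM) and 1116 in KO (31.9 RPM). The counting intervals of the 2 libraries, 47.0 to 53.7 and 29.3 to 34.6 RPM, did not overlap. Its log2 ratio of -0.66 had an interval from -0.81 to -0.50, which spans the threshold of 1.5 times. *Tnf* has 4 exons on chromosome 17 (35336326 to 35338952, minus strand). Leukocytes, a well known source of this cytokine, carry CD45 and were a target of the depletion. Leukocyte markers other than *Cd74* summed to 199.5 RPM in WT and 81.7 RPM in KO, and their part in the result was not tested.

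The 4 receptors had unlike ratios. *Tnfrsf10b*, the TRAIL receptor with a death domain in the mouse (chromosome 14, 70167279 to 70184210), had 2620 reads in WT (76.3 RPM) and 1678 in KO (47.9 RPM), a log2 ratio of -0.67 (interval -0.80 to -0.55). It was 1.59 times lower, close to the threshold, which its interval spans.

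*Fas*, the receptor of FAS ligand (chromosome 19, 34365149 to 34402260), had 1846 reads in WT (53.8 RPM) and 1432 in KO (40.9 RPM). The log2 ratio was -0.39 (interval -0.54 to -0.25), so the KO value was lower by more than counting error and by less than 1.5 times. *Tnfrsf1a*, which encodes TNFR1 (chromosome 6, 125299380 to 125312502), had 2796 reads in WT (81.4 RPM) and 2628 in KO (75.05 RPM), a log2 ratio of -0.12 (interval -0.23 to -0.01). Its RPM intervals in the 2 libraries, 77.2 to 85.8 in WT and 71.0 to 79.2 in KO, overlapped.

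*Tnfrsf12a* encodes FN14, the receptor of TWEAK, which has no death domain and signals through TRAF proteins. It had 2367 reads in WT (69.0 RPM) and 2866 in KO (81.8 RPM), a log2 ratio of 0.25 (interval 0.14 to 0.36). Among the receptors of the 8 genes, it alone had more RPM in KO, by 1.19 times. Its locus on chromosome 17 (23812414 to 23814416, minus strand) shares 78 of 963 exonic bases with *Hcfc1r1* on the other strand. *Hcfc1r1* had 9.85 and 11.6 RPM. The study's methods describe a library protocol that keeps strand, but whether the counting used it was not given in the sources used here, so the origin of reads on the shared bases is unknown.

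*Ripk1*, the kinase that branches from the TNFR1 complex towards NF-kappaB or cell death, had 2799 reads in WT (81.5 RPM) and 3940 in KO (112.5 RPM). It had the highest ratio of the 8, 1.38 times or 0.46 on the log2 scale (interval 0.37 to 0.56), below the threshold. On chromosome 13 (34094232 to 34127039, plus strand) its exons share 241 of 6138 annotated bases with *Serpinb6a* on the other strand (132.6 and 90.7 RPM) and 2108 with Gm17084 on the same strand, for which the files give no row under that symbol.

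*Casp8*, the initiator caspase of the receptor complex, had 1850 reads in WT (53.9 RPM) and 933 in KO (26.6 RPM). Its log2 ratio was -1.01 (interval -1.18 to -0.85), or 2.02 times lower, and the whole interval lay beyond 1.5 times. The gene spans 58852218 to 58904347 on the plus strand of chromosome 1, with 9 exons in its longest coding transcript and no overlapping gene. *Casp8* and *Tnfsf10* were the only 2 of the 8 genes whose counting interval lay beyond the threshold throughout. The share of all genes tested with such an interval was not computed.

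**Figure D2:**
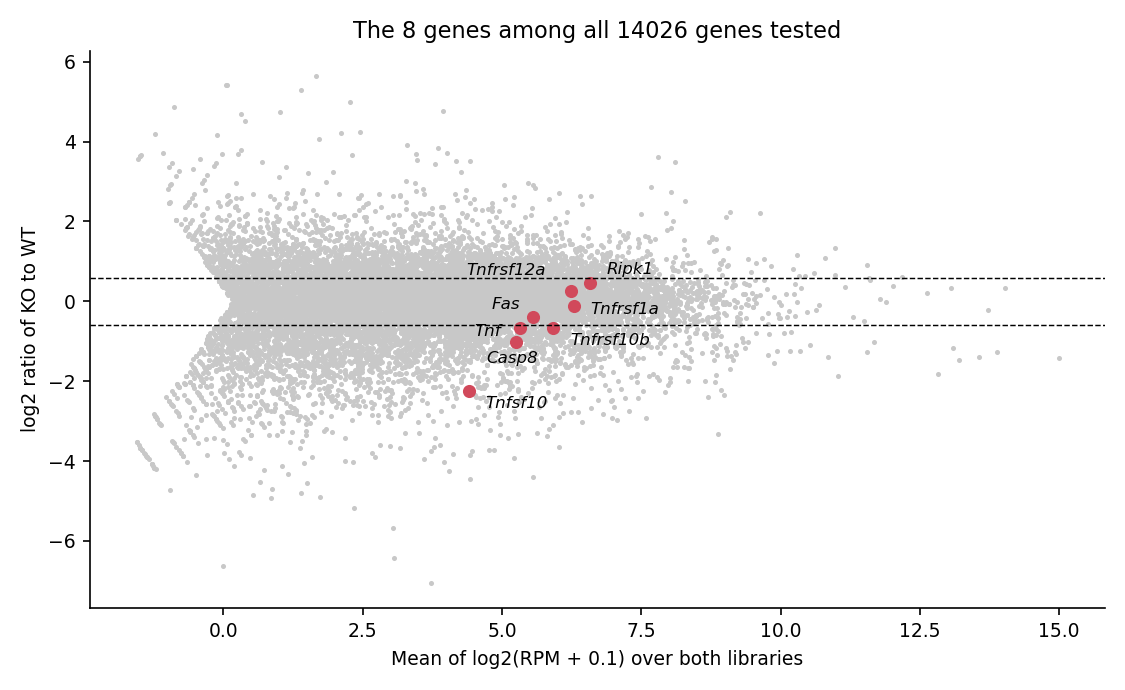
Log2 ratio of KO to WT against the mean of log2(RPM + 0.1) over both libraries for the 14026 genes tested (grey), with the 8 genes in red. Dashed lines mark 1.5 times in either direction. *Tnfsf10* sits lowest at -2.25, *Casp8*, *Tnfrsf10b* and *Tnf* lie past the lower line, and the other 4 lie between the lines.

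Per kilobase, the order of the levels was led by *Tnfrsf12a* in both libraries, with 70.4 RPKM in WT and 83.5 RPKM in KO, above 95.5% and 96.9% of the genes tested that have an RPKM. In WT it was followed by *Tnfrsf1a* (37.3 RPKM), *Fas* (36.2), *Tnf* (31.1), *Tnfrsf10b* (23.9), *Casp8* (20.8), *Ripk1* (18.1) and *Tnfsf10* (9.28 RPKM). Of these neighbours, only *Tnfrsf1a* and *Fas* had overlapping counting intervals, 35.3 to 39.3 and 33.9 to 38.6 RPKM. In KO the order was *Tnfrsf1a* (34.3 RPKM), *Fas* (27.5), *Ripk1* (24.9), *Tnf* (19.7), *Tnfrsf10b* (14.99), *Casp8* (10.3) and *Tnfsf10* (1.94 RPKM), with overlapping intervals only for *Fas* (25.5 to 29.6) and *Ripk1* (23.8 to 26.1). *Ripk1* thus moved from below *Casp8* to above *Tnf*, and *Tnfsf10* went from above 67.2% of genes to above 29.6%.

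Ratios between 2 genes of the same library do not depend on how the library is scaled. *Tnfsf10* per *Tnfrsf10b* was 0.389 by RPKM in WT and 0.129 in KO, a log2 change of -1.59 (exact conditional interval on read pairs -1.86 to -1.31). The ligand was thus lower relative to its own receptor. *Tnf* per *Tnfrsf1a* was 0.834 and 0.573, a change of -0.54 (-0.73 to -0.35). The ratio of *Ripk1* to *Casp8* was 0.867 in WT and 2.42 in KO, a change of 1.48 (1.29 to 1.67).

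*Casp8* per *Cflar*, the gene of c-FLIP, which competes with procaspase-8 in the receptor complex, was 0.307 by RPKM in WT and 0.263 in KO. Both genes were lower in KO, and the log2 change of their ratio was -0.22 (interval -0.40 to -0.05). *Fas* per *Fasl* was 38.8 and 29.6, a change of -0.39 whose interval, -1.15 to 0.42, includes no change, with 62 and 63 reads on *Fasl*. *Tnfrsf12a* per *Tnfsf12*, the gene of its ligand TWEAK, was 13.8 and 20.05, a change of 0.54 (0.16 to 0.95).

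The call of 3 of the 8 genes depended on the scaling of the libraries. With the libraries scaled by their reads on listed genes, every log2 ratio of the 8 genes shifted by about 0.19. *Tnfrsf10b* (-0.48) and *Tnf* (-0.47) then lay within 1.5 times, *Ripk1* (0.65) was higher by more than 1.5 times, and *Tnfrsf1a* changed sign to 0.07. The other 4 scalings (median centring, leaving out the 20 highest genes, TMM and DESeq2 size factors) kept all 4 lower calls and added none, and the lower calls of *Tnfsf10* and *Casp8* held under all of them. Over all 14026 genes the share of higher among called genes was 48.2% with the deposited RPM, 62.2% under scaling by listed reads and 37.6% without the 20 highest genes.

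**Figure D3:**
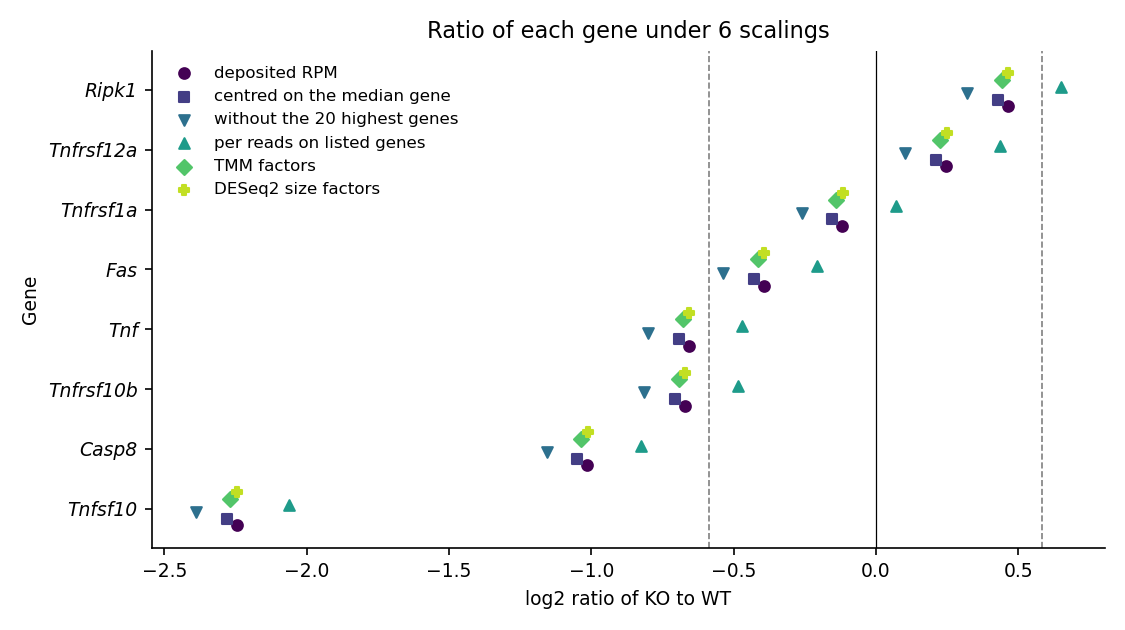
Log2 ratio of KO to WT (horizontal axis) of each of the 8 genes under 6 scalings of the libraries, each with its own symbol. Dashed lines mark 1.5 times. The values per reads on listed genes lie furthest to the right and those without the 20 highest genes furthest to the left. *Tnfsf10* and *Casp8* stay left of the lower line under all 6.

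The rest of the pathway was described with 7 lists, which hold 71 other genes, 66 of which reached 1 RPM in either library. Of these 66 genes, 19 (28.8%) were lower in KO by at least 1.5 times, 6 (9.09%) were higher and 41 lay within, with a median log2 ratio of -0.02. Over all genes tested the shares were 23.0% lower and 21.4% higher. The counts of these genes depended on the scaling. Under scaling by listed reads 15 (22.7%) were higher and 17 (25.8%) lower, against 30.3% and 18.4% of all genes tested. The share of higher genes was thus below that of all genes there too. With the 8 genes included, 6 genes were higher with the deposited RPM. That count was also 6 under median centring, TMM and DESeq2 size factors and without the 20 highest genes. It was 16 under scaling by listed reads. The 6 higher calls and 17 of the 19 lower calls held under all 6 scalings.

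Among receptors with a death domain, *Ngfr*, the p75 neurotrophin receptor, was higher in KO, with 158 reads in WT (4.603 RPM) and 572 in KO (16.3 RPM), a ratio of 3.49 times (log2 ratio 1.81, interval 1.46 to 2.21). *Tnfrsf21*, which encodes death receptor 6, had 92.1 and 89.3 RPM, and *Tnfrsf25* stayed below 1 RPM in both libraries. Of 7 further TNF receptor genes without a functional death domain, 4 (57.1%) were lower, against 23.0% of all genes tested. None was higher, except *Ltbr* (0.61) under scaling by listed reads, while 21.4% of all genes tested were higher with the deposited RPM. *Tnfrsf1b*, which encodes TNFR2, had 80.8 and 42.3 RPM (log2 ratio -0.93), and its ratio differed from that of *Tnfrsf1a* by 0.81 (interval of the difference 0.65 to 0.99). *Tnfrsf11b*, which encodes osteoprotegerin, a soluble decoy for RANKL and TRAIL, had 22.7 and 6.28 RPM (-1.84). The other 2 lower genes, named after their values were seen, were *Tnfrsf22* (9.76 and 5.54 RPM), a decoy TRAIL receptor of the mouse, and *Tnfrsf14* (3.00 and 0.69 RPM).

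Of 9 further ligand genes, 6 passed 1 RPM, 2 of them (33.3%) were lower and none was higher. Among all genes tested, 23.0% were lower and 21.4% higher. *Fasl* was near the limit, at 1.81 and 1.80 RPM, and *Tnfsf12* had 7.75 and 6.31 RPM. *Tnfsf15* had 19.6 RPM in WT and 6.08 RPM in KO (log2 ratio -1.67, interval -2.02 to -1.37). The other lower ligand, named after its values were seen, was *Tnfsf13b*, the gene of the B cell factor BAFF (1.51 and 0.60 RPM). *Lta*, *Tnfsf14* and *Tnfsf11* stayed below 1 RPM in both libraries.

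Of 21 other genes of the receptor complexes, 3 (14.3%) were higher, 5 (23.8%) were lower and 13 lay within 1.5 times. The shares over all genes tested were 21.4% higher and 23.0% lower. Under scaling by listed reads, 8 (38.1%) were higher and 5 (23.8%) lower, against 30.3% and 18.4% of all genes tested. The lowest ratios were those of the necroptosis genes *Ripk3* and *Mlkl*. *Ripk3*, the kinase that RIPK1 activates in necroptosis, had 1762 reads in WT (51.3 RPM) and 351 in KO (10.02 RPM), a log2 ratio of -2.34 (interval -2.60 to -2.12). *Mlkl*, the membrane executioner that RIPK3 phosphorylates, had 25.9 and 7.34 RPM (-1.80, interval -2.11 to -1.53). By RPKM *Ripk1* per *Ripk3* was 0.697 in WT and 4.93 in KO.

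*Daxx*, a FAS binding protein that is mostly nuclear, had 74.9 and 23.7 RPM (log2 ratio -1.66), and the remaining lower genes, named after their values were seen, were *Traf1* (26.9 and 12.99 RPM) and *Traf5* (6.18 and 2.46 RPM). The higher genes were *Cyld* (70.6 and 180.4 RPM, log2 ratio 1.35), *Dedd2* (16.8 and 32.2 RPM, 0.93) and *Tnfaip3* (669.2 and 1229 RPM, 0.88). *Cyld* encodes a deubiquitinase that acts on RIPK1, and *Tnfaip3* encodes A20, an ubiquitin editor that restrains NF-kappaB. The adaptor genes *Fadd* (8.80 and 12.5 RPM, log2 ratio 0.50) and *Tradd* (3.96 and 5.20 RPM, 0.38) stayed within 1.5 times, but *Fadd* (0.68) was among the 5 genes that became higher under scaling by listed reads, with *Traf2* (0.74), *Traf6* (0.73), *Lrdd* (0.75) and *Faf1* (0.63), named after their values were seen. *Lrdd* had only 24 reads in WT and 38 in KO, and its interval with the deposited totals, -0.48 to 1.81, includes no change.

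**Figure D4:**
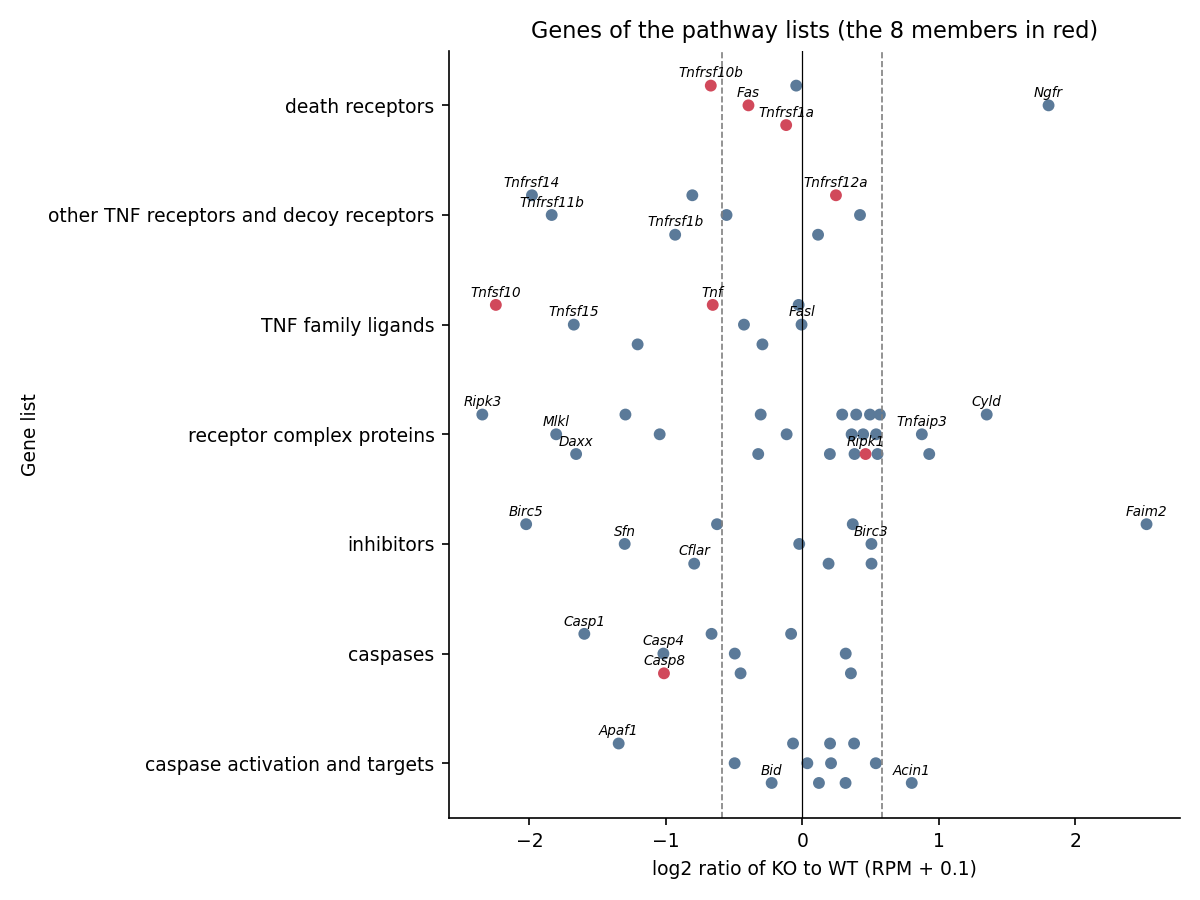
Log2 ratio of KO to WT for the genes of the 7 pathway lists that reached 1 RPM in either library, 1 row per list, with the 8 genes in red and others in blue. Dashed lines mark 1.5 times. The receptor complex genes spread from *Ripk3* at -2.34 to *Cyld* at 1.35, and the caspases hold no gene past the upper line.

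Of 10 inhibitor genes, 4 (40%) were lower and 1 (10%) was higher, or 3 and 3 under scaling by listed reads. Shares over all genes tested were 23.0% lower and 21.4% higher, or 18.4% and 30.3% under scaling by listed reads. *Cflar*, the most direct antagonist of caspase-8, had 16136 reads in WT (470.1 RPM) and 9505 in KO (271.4 RPM), a log2 ratio of -0.79 (interval -0.84 to -0.74). *Sfn* (133.9 and 54.3 RPM, -1.30), which encodes the checkpoint protein 14-3-3 sigma, and *Pea15a* (94.0 and 60.9 RPM, -0.62), which encodes a death effector domain protein, were lower as well, the latter within 1.5 times under scaling by listed reads (-0.44). The remaining 2, named after their values were seen, were weakly expressed, *Birc5* (4.603 and 1.06 RPM), which also acts in mitosis, and *Faim2* (0.35 and 2.48 RPM), the only higher gene. The apoptosis inhibitor genes *Birc2* (92.0 and 105.2 RPM), *Birc3* (342.1 and 486.2 RPM) and *Xiap* (118.2 and 116.4 RPM) lay within 1.5 times with the deposited RPM, and *Birc3* passed it (0.69) under scaling by listed reads.

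Of 8 other caspase genes with at least 1 RPM, 3 (37.5%) were lower, none was higher and 5 lay within. All genes tested had shares of 23.0% lower and 21.4% higher. The lower genes were *Casp1* (17.9 and 5.85 RPM, log2 ratio -1.60) and *Casp4* (86.0 and 42.4 RPM, -1.02), which are inflammatory caspases, and *Casp6* (3.82 and 2.37 RPM, -0.66, or -0.49 under scaling by listed reads). The mitochondrial initiator *Casp9* (3.90 and 5.03 RPM, 0.36) stayed within 1.5 times. *Casp14*, a caspase of cornifying epithelium, had 0 reads in WT and 4 reads in KO.

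Of 12 genes of caspase activation and caspase targets, 10 lay within 1.5 times, 1 (8.33%) was lower and 1 (8.33%) was higher. The shares over all genes tested were 23.0% lower and 21.4% higher. Under scaling by listed reads, 9 lay within, 1 (8.33%) was lower and 2 (16.7%) were higher, against 18.4% and 30.3% of all genes tested. *Bid*, which links caspase-8 to the mitochondria, had 129.0 and 110.4 RPM (log2 ratio -0.22, interval -0.31 to -0.14). *Apaf1*, the scaffold of the apoptosome, was lower, with 46.8 RPM in WT and 18.4 RPM in KO (-1.35), and *Acin1*, a nuclear caspase target, was higher (42.9 and 74.96 RPM, 0.80).

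Markers of the cells present also differed between the libraries. Of 10 leukocyte markers, 9 (90%) were lower in KO by at least 1.5 times, against 23.0% of all genes tested. The summed level of the 10 was 726.1 RPM in WT and 151.4 RPM in KO, or 4.80 times lower. Most of that sum was *Cd74* (526.6 and 69.7 RPM), an antigen presentation gene, and the other 9 markers summed to 199.5 and 81.7 RPM, or 2.44 times lower. *Ptprc*, the gene of CD45, had 43.5 and 18.1 RPM, *Lyz2* had 66.9 and 24.1 RPM, and *Itgam* alone did not share the direction (4.78 and 6.28 RPM). Of 6 endothelial markers, 5 (83.3%) were lower, with sums of 1129 and 374.8 RPM, and *Pecam1*, the gene of CD31, had 322.5 and 88.9 RPM. None of these markers was at 0 in either library, although the cells had been depleted with antibodies to CD45 and CD31.

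Of 6 basal epithelial markers, 5 (83.3%) were lower (sums 2942 and 957.9 RPM), against 23.0% of all genes tested. Of 5 fibroblast markers, the 3 collagen genes (60%) were lower (8658 and 4498 RPM over the list). *Pdgfra* had more RPM in KO (97.0 and 132.8 RPM, log2 ratio 0.45, or 0.64 under scaling by listed reads). Of 8 luminal epithelial markers, *Krt8* and *Krt18* were higher (250.4 and 1174 RPM for *Krt18*), and the milk protein genes *Csn2*, *Wap* and *Lalba* were lower. The 3 erythroid markers with at least 1 RPM lay within 1.5 times with the deposited RPM. Across the 6 scalings, the log2 ratio reached 0.71 for *Hba-a1* and -0.72 for *Alas2*. For the luminal markers *Epcam* and *Elf5* it reached 0.70 and -0.66, also past 1.5 times. Of 3 adipocyte markers with at least 1 RPM, 2 were lower and *Lep* was higher (sums over the list 23.9 and 19.4 RPM). Most of the KO sum was *Lep* (8.04 and 16.8 RPM), and the list without it summed to 15.8 and 2.57 RPM, or 6.17 times lower. The part of these differences in the ratios of *Tnfsf10*, *Tnf*, *Tnfrsf10b*, *Casp8* and the other lower genes was not tested, and in bulk RNA fewer cells of a type and less RNA per cell cannot be told apart.

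**Figure D5:**
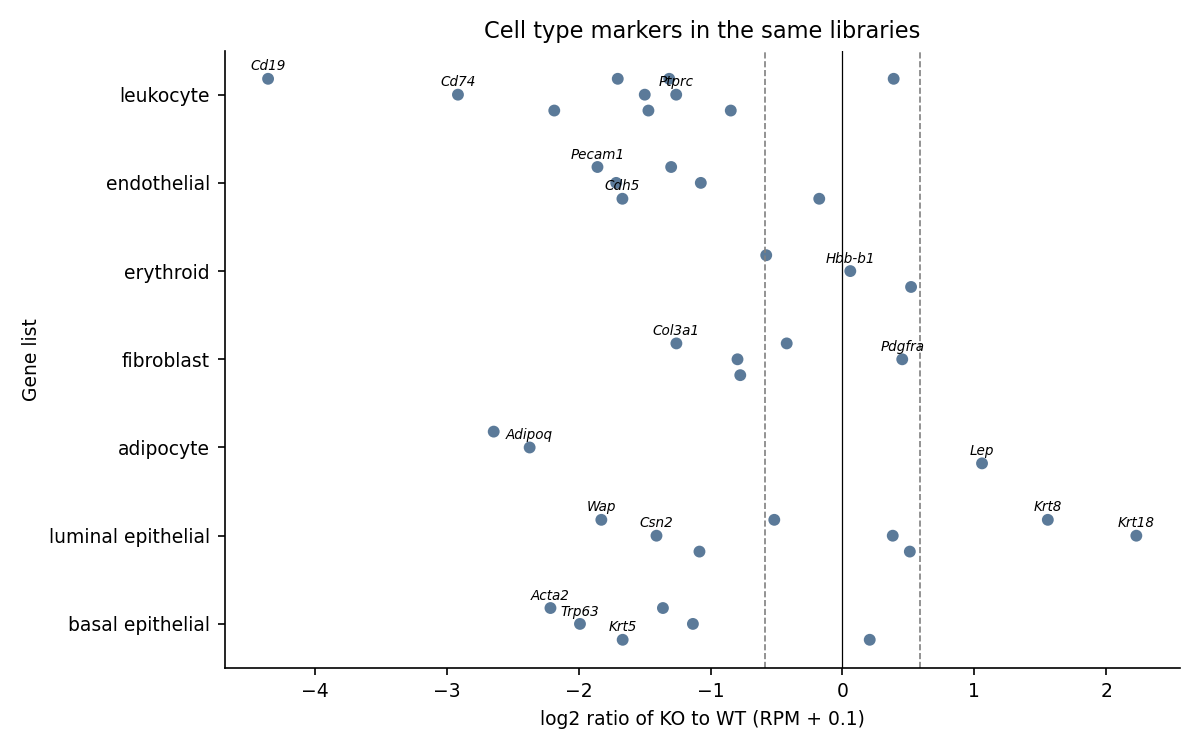
Log2 ratio of KO to WT for markers of 7 cell types that reached 1 RPM in either library, 1 row per cell type. Dashed lines mark 1.5 times. Leukocyte, endothelial and basal markers lie mostly left of the lower line, with *Itgam*, *Tek* and *Oxtr* as the exceptions, and *Krt8* and *Krt18* lie right of the upper line.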

How the data were processed

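Poly(A) RNA was sequenced on a SOLiD sequencer in 1 WT and 1 KO library. The authors mapped paired reads with a Bowtie pipeline in GeneSifter and allowed a small number of mismatches. The submitters' processing notes list Bowtie 0.12.3, SAMtools 0.1.15 and mm9, whereas the paper's methods name a human reference, and the gene annotation is not given in the sources used here. The authors deposited the count per gene (blank for no read), the RPM, which the authors scaled to 34327854 (WT) and 35016847 (KO) reads, and the RPKM, which the authors divided by 1 length per gene. The 50 rows of each file without a symbol held 0.041% and 0.048% of the reads and were left out, and 733 rows had no RPKM. Because these totals include reads outside the listed genes, a library with more such reads has lower RPM throughout.

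Ratios were computed from RPM + 0.1 for genes that reached 1 RPM in either library. With 1 library per genotype no test against replicates could be made. Intervals are 95% Clopper-Pearson intervals for ratios between libraries (without the added 0.1), exact Poisson intervals for levels and exact conditional odds ratio intervals for pairs of genes, all on read pairs. A share of 75.8% (WT) and 74.1% (KO) of genes with few reads had an even count. At 3 reads the limit of detection was 0.0874 and 0.0857 RPM. The scripts were tested on simulated counts that held counting error only, which cannot speak to the scaling or to variation between mice. The alternatives were 12 other settings of pseudocount, unit, minimum, scaling and threshold, including edgeR 4.0.16 TMM factors and DESeq2 1.42.0 size factors. Positions are from GENCODE M1 on NCBIM37. Python 3.11.15, numpy 2.4.6, pandas 2.3.3, scipy 1.17.1 and R 4.3.3 were used.

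The 8 genes and all lists were chosen with earlier results of these data known. Named were the 8 genes, *Fasl*, *Fadd*, *Tradd*, *Cflar*, *Tnfsf12*, *Casp6*, *Casp9*, *Bid* and *Igfbp7*, genes below 1 RPM, and per list up to 3 genes furthest past 1.5 times in each direction with at least 10 RPM. Some genes that this rule or the lists hold are not reported here. Other genes named, the pairs of genes and the motifs were chosen after values were seen.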

Additional observations from a re-analysis of the deposited data

How the results depend on the processing

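Of 12 alternative settings, 10 left the count of lower genes among the 8 at 4, and 11 left the count of higher genes at 0. Scaled to the reads on listed genes, 2 were lower and 1 was higher, because that scaling adds 0.19 to each log2 ratio. With a ratio threshold of 2, 2 were lower (*Tnfsf10* and *Casp8*). Over the 11 settings other than the threshold, the log2 ratio ranged from -2.39 to -2.06 for *Tnfsf10*, from -1.16 to -0.83 for *Casp8*, from -0.81 to -0.48 for *Tnfrsf10b*, from -0.80 to -0.47 for *Tnf*, from -0.54 to -0.21 for *Fas*, from -0.26 to 0.07 for *Tnfrsf1a*, from 0.10 to 0.43 for *Tnfrsf12a* and from 0.32 to 0.65 for *Ripk1*. Among the genes of the pathway lists, 6 were higher and 23 lower as reported (the 8 genes included), 16 were higher when scaled to the reads on listed genes, and 3 were higher at a threshold of 2. Over all genes, 3006 were higher and 3231 lower. These counts were 4741 and 5279 with no minimum, 1696 and 1672 with a minimum of 10 RPM in 1 library, and 1352 and 1936 at a threshold of 2, which follows from the number of genes tested or the stricter limit. No replicate could be left out, since each genotype had 1 library, so the variation between mice is unknown. Depth limits *Fasl*, *Tradd*, *Casp9* and other genes with few reads.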
